A study of Mus musculus with 12 samples.

Results

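Interferon-stimulated genes were followed across 3 mammary cell lines and 3 groups of mammary tissue. The members were 35 listed genes known to be induced by interferons, and a gene counted as measured when a probe set of the array was annotated to it alone. That held for 29 of the 35 genes, read by 35 probe sets, out of 12393 genes and 20380 probe sets on the arrays. Of the other members, Isg15, Ifi203 and Ifi205 lie only on probe sets annotated to several genes, so no value is given for them. Ifi44, Ifi27 and Xaf1 have no probe set in the annotation used.

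The study measured RNA on 12 single-color arrays, 9 from tissue and 3 from cell lines. All tissue came from female mice of the NMRI strain: 3 mammary glands of mice without a transgene, 3 glands of WAP-SVT/t transgenic mice and 3 tumors of WAP-SVT/t mice, the glands all taken at the start of lactation. In the transgenic animals the SV40 T and t antigens are made in the epithelial cells of the mammary gland, driven by the Wap promoter, which is active in milk-producing cells. The 3 lines are labelled as breast cancer lines and were measured on 1 array each: ME-A, ME-B, which the labels call a revertant, and ME-B-T/t, which they call retransformed. The tumors carry different identifiers in their titles, but no label states for any tissue group that its 3 arrays came from separate mice, so p-values measure the spread between these samples, which may in part be technical. The labels also give no culture conditions, age or interferon treatment for any sample.

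Interferons are secreted proteins that cells release when they sense viral nucleic acids or other signs of infection. Type I interferons act through a receptor that activates the kinases JAK1 and TYK2, which leads to a complex that holds STAT2 and IRF9. That complex binds a short promoter element, the interferon-stimulated response element (ISRE), whereas interferon gamma acts on gamma-activated sites (GAS). The genes switched on this way include factors that amplify the response, such as Irf7, and effectors that block viruses, present antigen or attract T cells. In the mammary gland such genes can be read from epithelium, stroma and resident or incoming leukocytes alike.

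Values are scaled signals in the intensity units of the arrays. Signals under 57.5, the 30th percentile of all arrays together, were set to that floor before log2 values and folds were computed, while levels printed here are shown before flooring. A probe set's signal depends on its own sequence, so values are set side by side between arrays and never between genes.

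The clearest pattern lay among the cell lines: interferon-stimulated genes were far lower in ME-B than in both ME-A and ME-B-T/t. Of 26 members measured in the lines, 13 were at least 4-fold lower in ME-B than in each of the others, and 0 were at least 4-fold higher. Over all 7945 genes measured in the lines, 0.428% were lower by that rule (34 genes) and 0.189% higher. The members' share was thus 50%, and 13 of the 34 genes, 38.2%, were members. With 1 array per line there is no replicate, so no test was made and these values describe 3 libraries. At a 2-fold rule 19 of 26 members, 73.1%, were lower in ME-B, beside 2.3% of all genes.

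The shift was broad within the set. ME-B lay below both other lines in 23 of 26 members, between them in 2 (Ifit2 and Isg20) and above both in 1 (Ifi204). The members' median log2 difference was -2.64 for ME-B minus ME-A and -2.56 for ME-B minus ME-B-T/t, where the medians of all genes were 0.00 and -0.04. ME-A and ME-B-T/t lay much closer to each other, with a median log2 difference of 0.08 for ME-B-T/t minus ME-A. Of the 26 members, 15 were within 2-fold between those lines, 7 were at least 2-fold higher in ME-B-T/t and 4 at least 2-fold higher in ME-A.

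**Figure D1:**
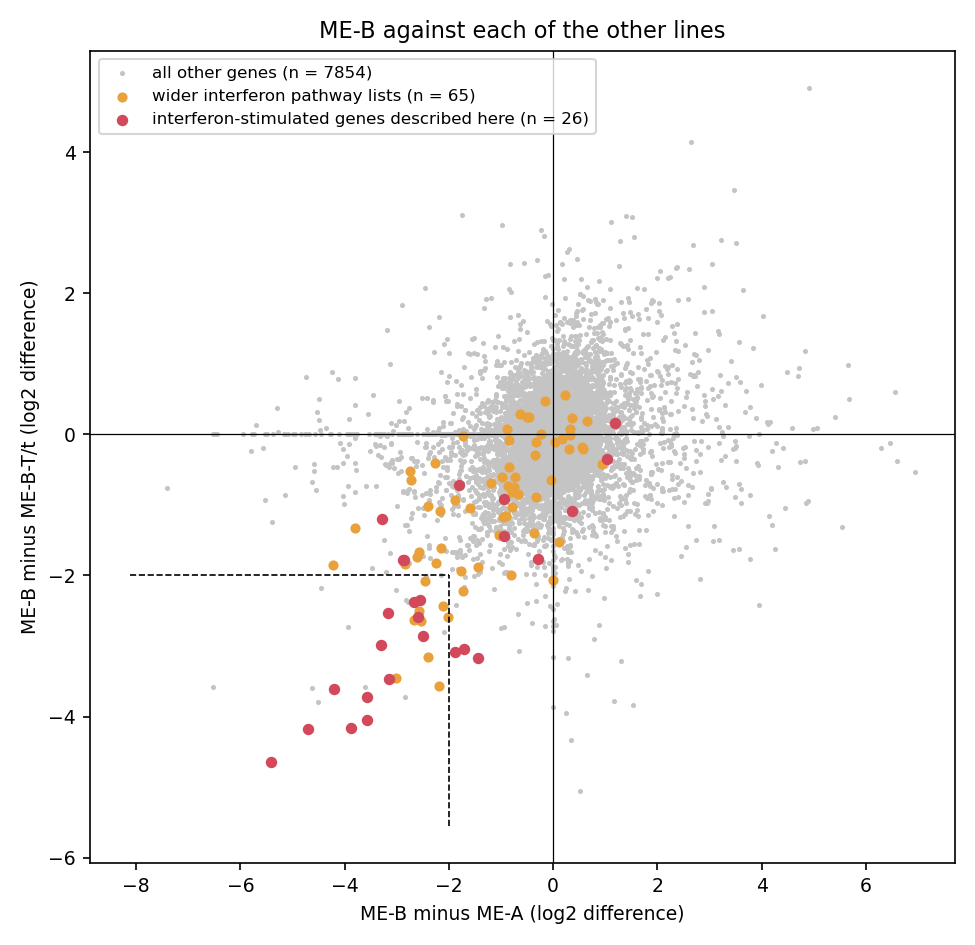
Each point is a gene measured in the lines, with its log2 difference ME-B minus ME-A on the x axis and ME-B minus ME-B-T/t on the y axis. Interferon-stimulated genes (n = 26) are red, genes of wider interferon pathway lists (n = 65) orange and all others grey. The dashed corner marks 4-fold lower in ME-B than in both lines, and holds 13 of the 34 such genes as members.

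Promoter sequences are shown here because many members, whether lower by 4-fold in ME-B or not, hold the core of the response element named above. RefSeq promoter windows (build GRCm38.p6) from 250 bases before to 50 after a gene's start were found for 28 of the 35 members. Windows were searched on both strands for the ISRE core, GAAA, any 2 bases and GAAA again (TTTC, 2 bases and TTTC on the other strand), and for the GAS core TTCNNNGAA, which reads the same on both strands. The ISRE core was in the windows of 15 of 28 members, 53.6%, and in those of 3.99% of 27025 genes with a window. Of the 11 members lower by 4-fold in ME-B that had a window, 7 held it (Bst2, Cxcl10, Ifih1, Ifit1, Ifit3, Igtp and Oas1a). Of the 11 other members measured in the lines that had a window, 5 held it. The GAS core was in 8 of 28 members, 28.6%, beside 9.55% of genes, and the motifs overlapped in 1 member window, that of Bst2. A match is a run of letters and not a measured binding site. Stretches around the cores of 6 of the 7 members lower by 4-fold follow, 5′ to 3′ on the strand of the gene and ending no later than its start, with the ISRE core letters in capitals.
Ifit1, chr19:34640755-34640843, plus strand, 2 cores: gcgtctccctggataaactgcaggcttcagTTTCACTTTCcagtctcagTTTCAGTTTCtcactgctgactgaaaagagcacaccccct
Ifit3, chr19:34583343-34583446, plus strand, 2 cores: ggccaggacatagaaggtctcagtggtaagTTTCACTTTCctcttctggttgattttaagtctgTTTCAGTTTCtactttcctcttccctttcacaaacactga
Oas1a, chr5:120907526-120907575, minus strand, 2 overlapping cores: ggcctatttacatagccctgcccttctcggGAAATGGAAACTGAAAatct
Bst2, chr8:71537557-71537632, minus strand, 2 overlapping cores: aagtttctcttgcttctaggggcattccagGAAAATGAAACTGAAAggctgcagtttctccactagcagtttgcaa
Igtp, chr11:58199492-58199555, plus strand, 1 core: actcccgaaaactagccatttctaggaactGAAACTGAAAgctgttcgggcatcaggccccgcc
Cxcl10, chr5:92349063-92349132, minus strand, 1 core: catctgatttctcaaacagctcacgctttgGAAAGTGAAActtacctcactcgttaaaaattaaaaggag

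The cores of these 6 genes began between 213 bases (Cxcl10) and 14 bases (the second core of Oas1a) before the start. In Ifit1 and Ifit3, both on chromosome 19, the cores are written in the reverse direction relative to the gene. The windows of Irf7, Irf9, Oasl2 and Ifi35, also lower by 4-fold in ME-B, held no ISRE core with these letters. 

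Among the transcription factors, Irf7, the amplifier of the type I response, had a signal of 2638 in ME-A, 143 in ME-B and 1743 in ME-B-T/t. ME-B was thus 18.4-fold below ME-A and 12.2-fold below ME-B-T/t. Irf9, the DNA-binding partner of STAT2, stood at 678 in ME-A, 76.4 in ME-B and 843 in ME-B-T/t, 8.87-fold and 11-fold lower in ME-B. Stat2, which encodes that partner, read 234 in ME-A, 63.0 in ME-B and 535 in ME-B-T/t, and missed the 4-fold rule because ME-B was 3.71-fold below ME-A. The other Stat2 probe set read 209 in ME-A, 13.1 in ME-B and 342 in ME-B-T/t. There ME-B was under the floor, so folds from that probe set are only bounds. Irf1, which interferon gamma induces strongly, differed less, with 762, 396 and 751 in the same order of lines. The brighter Irf8 probe set, for a factor of myeloid cells, was under the filter for dim genes in the lines, with 131, 63.3 and 65.2. The factors of this set therefore did not differ alike: Irf7 and Irf9 passed the 4-fold rule, and Irf1 lay just under 2-fold.

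The antiviral effectors held the largest differences. Rtp4, which encodes a receptor transporter protein induced by interferon, had 3779.7 in ME-A, 88.6 in ME-B and 2221 in ME-B-T/t, so that ME-B was 42.7-fold and 25.1-fold lower. These folds are those of the brighter Rtp4 probe set: with the mean of both probe sets the log2 difference from the nearer line was -2.32 in place of -4.65. Oasl2, a member of the oligoadenylate synthetase family that senses double-stranded RNA, had 1504 in ME-A, 27.4 in ME-B and 1041 in ME-B-T/t. As ME-B was under the floor, Oasl2 was at least 26.2-fold and at least 18.1-fold lower there, bounds that move with the floor (a log2 difference from the nearer line of -3.52 with the floor at the 40th percentile and -5.09 at the 20th, in place of -4.18). Oas1a, an oligoadenylate synthetase gene whose promoter stretch is shown above, stood at 2453, 271 and 1573, and ME-B was 9.05-fold and 5.80-fold lower. All 3 genes were high in ME-A and ME-B-T/t and low in ME-B.

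The Ifit genes encode proteins that bind foreign RNA, and here they split. Ifit1 had 947 in ME-A, 79.6 in ME-B and 1321 in ME-B-T/t, 11.9-fold and 16.6-fold lower in ME-B. Ifit3 had 324 in ME-A, 56.4 in ME-B, just under the floor, and 417 in ME-B-T/t, at least 5.64-fold and at least 7.26-fold lower. Ifit2 did not follow them, with 177 in ME-A, 228 in ME-B and 483 in ME-B-T/t. Isg20, an exonuclease gene, also lay between the other lines in ME-B, with 149, 304 and 386. Bst2, which encodes the virus-tethering membrane protein tetherin, had 1416 in ME-A, 119.6 in ME-B and 1581 in ME-B-T/t, 11.8-fold and 13.2-fold lower in ME-B.

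Rsad2, or viperin, and Parp14, an ADP-ribosyltransferase, were past 4-fold against ME-A but not against ME-B-T/t. The brightest Rsad2 probe set had 1248 in ME-A, 129 in ME-B and 296 in ME-B-T/t. The other Rsad2 probe sets were likewise lowest in ME-B, at 72.8 and 36.7. Parp14 had 799.6, 109 and 375. Mx1 and Mx2, GTPases that block viral replication, were too dim for the filter, with at most 100.4 for Mx1 and 53.2 for Mx2 in the lines.

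Usp18, which removes ISG15 from proteins and dampens the type I receptor, had 1278 in ME-A, 87.1 in ME-B and 1559.8 in ME-B-T/t, 14.7-fold and 17.9-fold lower in ME-B. Ifih1, the cytosolic sensor of long double-stranded RNA also called MDA5, had 787, 134 and 683, and was 5.87-fold and 5.10-fold lower in ME-B. Ifi204, of the family of DNA-sensing HIN proteins, was the exception, with 65.7 in ME-A, 149.6 in ME-B and 134 in ME-B-T/t. A negative regulator and a sensor were thus low in ME-B beside the effectors.

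Of the interferon-induced GTPases, which act against pathogens inside vacuoles, 1 of 5 passed the 4-fold rule. Igtp, or Irgm3, had 696 in ME-A, 115 in ME-B and 692 in ME-B-T/t, 6.04-fold and 6.0-fold lower in ME-B. Gbp3 was under the floor in ME-B, with 419, 33.2 and 197, so that ME-B was at least 7.29-fold below ME-A and at least 3.43-fold below ME-B-T/t. Gbp2 had 194, 59.1 and 487, and its second probe set had 37.7 in ME-B. Irgm1 (478, 247 and 669.7) and Ifi47 (364, 296 and 1008) were lowest in ME-B by smaller margins. ME-B was the lowest line for all 5 GTPase genes.

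Among the secreted and other members, Cxcl10, the chemokine that draws T cells through CXCR3, had 439.9 in ME-A, 68.8 in ME-B and 357 in ME-B-T/t, 6.40-fold and 5.20-fold lower in ME-B. Ifi35, which encodes an interferon-induced leucine zipper protein, had 797, 81.2 and 641, 9.81-fold and 7.89-fold lower. Lgals3bp, a secreted galectin-binding glycoprotein, had 544, 201 and 1807 and passed 4-fold against ME-B-T/t alone. Ifi30, the lysosomal thiol reductase of antigen processing, had 1715, 487 and 801 and passed against neither. Cxcl10 and Ifit3 left the 4-fold group when the floor was set at the 40th percentile, which gave 11 members in place of 13.

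**Figure D2:**
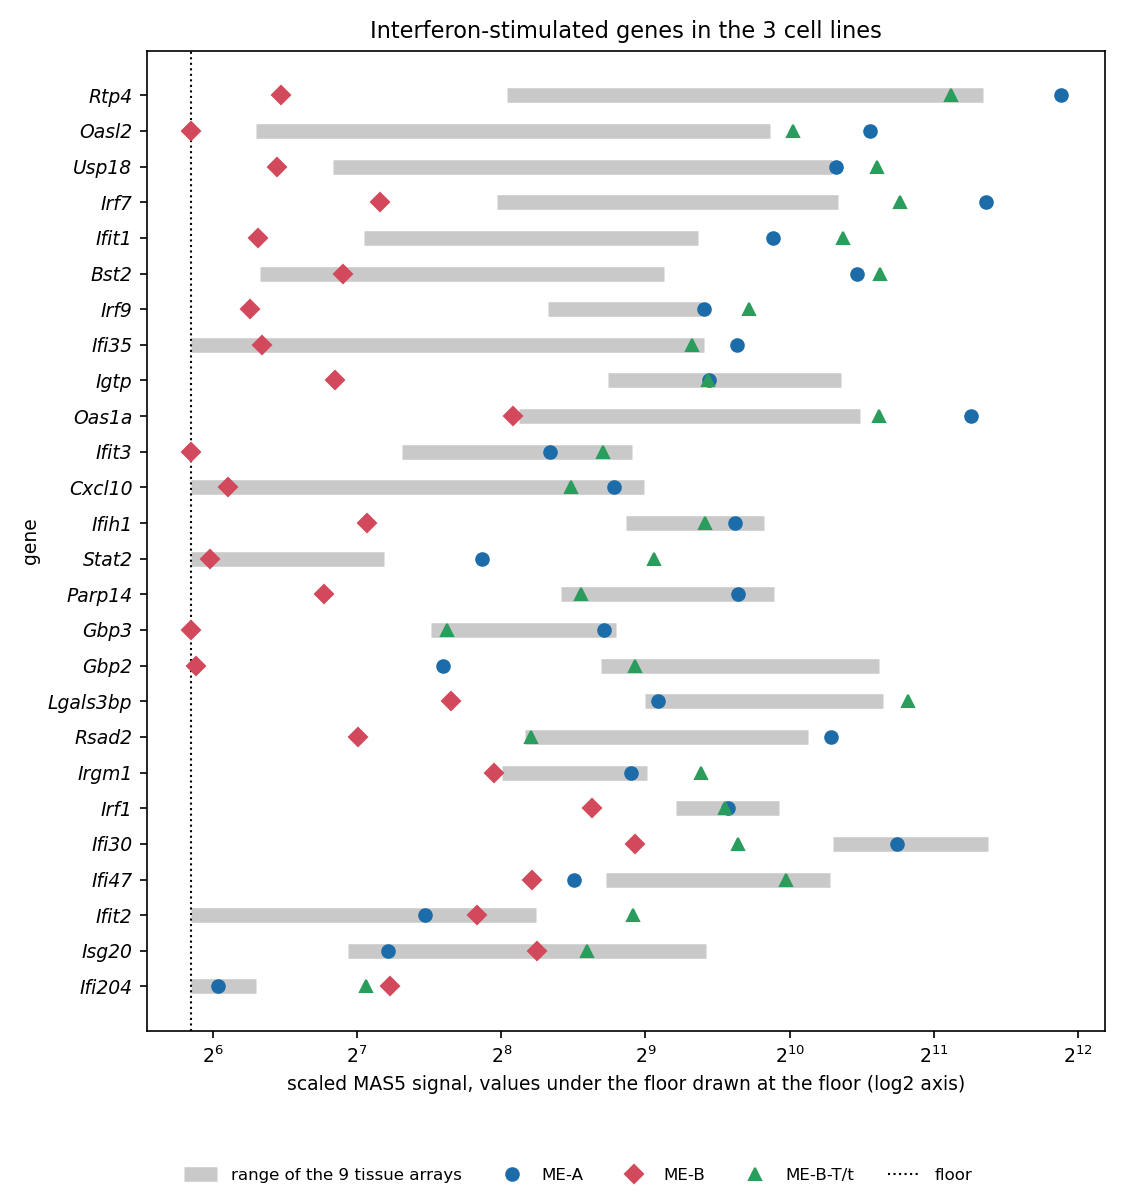
Scaled signal of the 26 interferon-stimulated genes measured in the lines, on a log2 axis, with 1 point per line and a grey bar for the range of the 9 tissue arrays. Genes are ordered from the most to the least lowered in ME-B against the nearer of the other lines. ME-B (red) is the lowest line in 23 genes, and in 3 of them (Gbp3, Ifit3 and Oasl2) it lies at the floor, the dotted line.

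The tissue arrays give a scale for the lines, as a description with no test. ME-B lay below all 9 tissue arrays in 20 of 28 members, 71.4%, where 18.5% of 9176 genes did, and above all of them in 1 (Ifi204), where 19% of genes did. ME-A lay above all tissue arrays in 11 members and below all in 2, and the shares over all genes were 15.5% and 14.8%. ME-B-T/t lay above them in 12 and below in 2, with 20.1% and 16.6% over all genes. Averaged over the 29 measured members, the mean log2 signal was 6.88 in ME-B, 9.03 in ME-A and 9.06 in ME-B-T/t, and ranged from 7.79 to 9.08 in tissue.

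Cell type markers place the lines. The 9 markers of all leukocytes summed to 340 in ME-A, 399.8 in ME-B and 397 in ME-B-T/t, with 3, 2 and 2 of them above the floor, while they summed to between 1984 and 7382 on the tissue arrays. Ptprc, which encodes the defining leukocyte antigen CD45, was under the floor in all 3 lines, at 18.0, 27.0 and 28.8. Markers of dividing cells summed over 7 genes to 10774, 11339.6 and 8584. Epithelial markers differed more: 12 luminal markers summed to 31815 in ME-A but to 1815 in ME-B and 996 in ME-B-T/t. Epcam, an epithelial adhesion gene, had 5311 in ME-A and was under the floor in ME-B and ME-B-T/t, at 9.05 and 13.2. Fibroblast and matrix markers (12) ran the other way, with 2551, 17704 and 27867. Both marker lists set ME-A apart, whereas the interferon-stimulated genes set ME-B apart.

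Wider lists of the interferon pathway were read in the same way: 123 genes, of which 87 had a probe set and 65 were measured in the lines. These lists hold no members, so the inhibitor Usp18 and the sensor Ifih1, both lower by 4-fold in ME-B, are not counted in them. Of those 65, 9 were at least 4-fold lower in ME-B than in both lines, 13.8%, and 0 were higher. The largest difference of the 9 was that of Ccl5, a chemokine for T cells and monocytes, with 465 in ME-A, 14.1 in ME-B and 628 in ME-B-T/t, at least 8.08-fold and at least 10.9-fold lower. Dhx58, a helicase of the RIG-I family, had 363, 5.54 and 356, at least 6.32-fold and at least 6.20-fold lower. Ddx60, another helicase of antiviral defence, had 334, 12.7 and 360.2, at least 5.81-fold and at least 6.27-fold lower. Trim34a, of a family of ubiquitin ligases, had 340.2, 55.1 and 325, at least 5.92-fold and at least 5.66-fold lower. Of the 9 wider genes, 8 were further interferon-induced effectors and 1, Dhx58, was on the list of nucleic acid sensing and induction.

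Upstream components were read in the lines as well. Of 5 receptor genes, 4 kinase and STAT genes, and 6 inhibitor genes measured, 0 passed the 4-fold rule in either direction, where 0.428% of all genes were lower and 0.189% higher, so a count of 0 among 15 genes is near the background. Of 12 sensing and induction genes outside the members 1, Dhx58, passed. Adar, Tlr3 and Zbp1 were also lower in ME-B by the 2-fold rule, which 2.3% of all genes passed. Irf5, Mavs and Sting1 lay above both other lines, by less than 2-fold. The type I receptor gene Ifnar1 had 235 in ME-A, 345 in ME-B and 392 in ME-B-T/t, and Ifnar2 had 509, 369.7 and 313. The kinase genes Jak1 (789, 1171 and 1346) and Tyk2 (372, 379 and 408) were no lower in ME-B than in ME-A. Irf3, the factor that first induces interferon genes, had 902, 706 and 865. Tlr3, an endosomal sensor of double-stranded RNA, was lowest in ME-B with 915, 65.7 and 164, but passed 4-fold against ME-A alone. Of 21 interferon ligand genes, 10 had a probe set and 1, Ifnz, was bright enough to be measured in the lines, with 156, 92.5 and 154, so no level is given for the others. These upstream genes were named for their place in the pathway and after their values were seen.

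In tissue the picture was weaker and more even. The first comparison set glands with the transgene against glands without it, at the start of lactation. Of 26 members tested (Mx1, Mx2 and Ifi204 were too dim), 3 passed an adjusted p of 0.05 by limma in transgenic against NMRI glands: Ifit2 and Oasl2 were higher and Isg20 was lower. That is 11.5% of members, near the background of 10.1% over 7898 genes. The higher ones were 7.69% of members, where 6.08% of genes were higher, and 4.03% of genes were lower. Direction was less even, with higher means in 21 of 26 members (80.8%, where 50.8% of all genes were higher) and a median log2 difference of 0.68, beside 0.01 for all genes. In fits without 1 array the members' median ranged from 0.27, without transgenic gland 2, to 0.80, without transgenic gland 3. It was 0.39 without NMRI gland 1. Groups did not overlap in 8 members, 6 higher and 2 lower, which is 30.8% where 31.1% of genes did so.

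Ifit2 had 18.7, 56.3 and 101 in NMRI glands 1 to 3, the former 2 values under the floor, and 221, 303 and 228 in transgenic glands 1 to 3. All 3 transgenic arrays lay above all 3 NMRI arrays. The mean was 251 ± 45.4 (SD, n = 3) against 58.6 ± 41.1, a log2 difference of 1.84 ± 0.31 (SE) by limma, with adjusted p = 0.00322. This difference moves with the floor, to 1.40 with the floor at the 40th percentile and 2.15 at the 20th. Unlike Ifit1 and Ifit3, Ifit2 was the Ifit gene that was not lower in ME-B than in both other lines. Ifit1 and Ifit3 did not pass in transgenic glands, with log2 differences of 0.70 ± 0.44 and 0.15 ± 0.37.

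Oasl2 had 78.9, 122 and 192 in NMRI glands and 450.0, 891 and 292 in transgenic glands. Again the groups did not overlap, though transgenic gland 2 stood well above the other transgenic glands. The mean was 544 ± 310.4 (SD, n = 3) against 131 ± 57.3, a log2 difference of 1.99 ± 0.46 by limma (adjusted p = 0.0198). This call was lost without NMRI gland 1 (adjusted p = 0.0953 by limma), NMRI gland 2 (0.0660), transgenic gland 1 (0.0513) or transgenic gland 2 (0.0657), each left out alone.

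Isg20 moved the other way, with 686, 584 and 528 in NMRI glands and 157, 211 and 123 in transgenic glands. Every NMRI array lay far above every transgenic array. The mean was 164 ± 44.6 (SD, n = 3) against 599 ± 80.1, 3.73-fold lower, and the log2 difference of -1.90 ± 0.25 by limma had adjusted p = 0.000671. This was the smallest adjusted p of any member in this comparison. In the lines, too, Isg20 did not follow the other members.

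Oas1a had 279, 313 and 511 in NMRI glands and 596, 1439.5 and 582 in transgenic glands. These groups did not overlap, but transgenic gland 2 was far above its group and the log2 difference of 1.16 ± 0.37 did not pass by limma (adjusted p = 0.0731). Cxcl10 was under the floor in all 3 NMRI glands, with 5.05, 10.4 and 46.4, and read 108, 241 and 74.0 in transgenic glands, with adjusted p = 0.206 by limma. For the other members the adjusted p ranged upwards from 0.102, the value of Ifi30.

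**Figure D3:**
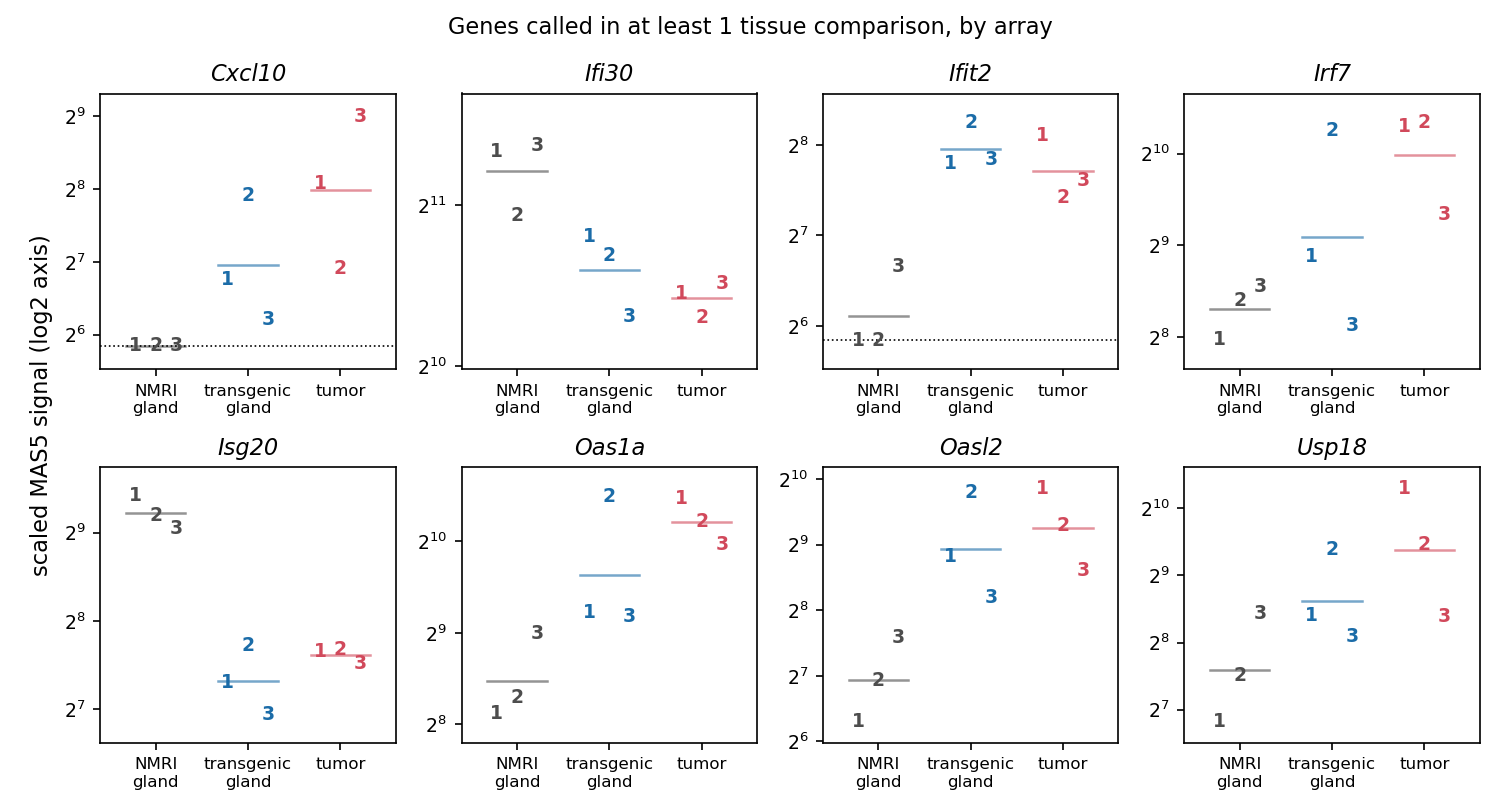
Scaled signal, on log2 axes that differ between panels, of the 8 genes that passed limma at an adjusted p under 0.05 in at least 1 tissue comparison. Digits are array numbers within NMRI glands, transgenic glands and tumors, horizontal lines are group means of log2 values, and the dotted line is the floor. By group mean, Isg20 and Ifi30 are highest in NMRI glands and the other 6 genes lowest there.

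The second comparison set tumors against transgenic glands, tissue with the same transgene that is not labelled as a tumor. Of the 26 members, 0 passed by limma, where 2.95% of all genes did, and 0 had an unadjusted p under 0.05. The median log2 difference was 0.08, the members ranged from -0.46 (Rsad2) to 1.03 (Cxcl10), and in 0 members did the groups separate, where 19.7% of genes did. Cxcl10 had 269, 119.5 and 508 in tumors 1 to 3 and 108, 241 and 74.0 in transgenic glands, with adjusted p = 0.371 by limma and a 95% interval of the log2 difference from -0.13 to 2.19. An interval of that width does not show that the groups are alike.

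Tumors were compared with NMRI glands as well, a comparison that shares the NMRI arrays with the first and the tumors with the second. Of 26 members, 8 passed by limma, 30.8% where 24.6% of all genes did. The 6 higher ones, 23.1% of members where 12.9% of genes were higher, were Cxcl10, Ifit2, Irf7, Oas1a, Oasl2 and Usp18. Isg20 and Ifi30 were lower, as were 11.6% of all genes. The median log2 difference was 0.56, beside 0.02 for all genes, and groups did not overlap in 11 members (9 higher and 2 lower), 42.3% where 43.9% of genes did so.

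Oas1a had 1412, 1187 and 1000.2 in tumors 1 to 3, above all NMRI arrays (279, 313 and 511). The mean of 1199.9 ± 206 (SD, n = 3) against 368 ± 125 gave a log2 difference of 1.74 ± 0.37 by limma (adjusted p = 0.00659). Oasl2 had 931, 629 and 389 in tumors, also above every NMRI array, with a log2 difference of 2.31 ± 0.46 (adjusted p = 0.00464 by limma). Oas1a and Oasl2 were thus higher in tumors than in NMRI glands. Of the same family in the wider list, named here after their values were seen, Oas2, Oas3 and Oasl1 did not pass (adjusted p = 0.714, 0.0783 and 0.473 by limma). Ifit2 read 274, 170.5 and 195 in tumors, with a log2 difference of 1.59 ± 0.31 (adjusted p = 0.00394 by limma). That difference was 1.15 with the floor at the 40th percentile and 1.90 at the 20th.

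Cxcl10, whose promoter stretch is printed above, had 269, 119.5 and 508 in tumors and was under the floor in every NMRI gland. It was at least 4.42-fold higher, and the log2 difference computed from the floor was 2.14 ± 0.53 by limma (adjusted p = 0.0131). It was 1.48 with the floor at the 40th percentile and 2.85 at the 20th. In 3 of the 9 fits without 1 array Cxcl10 was too dim to be tested, and it passed in the other 6. Without the filter on dim genes it did not pass (adjusted p = 0.0590 by limma).

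Irf7 had 1259, 1292 and 645 in tumors and 250.4, 337 and 375 in NMRI glands, with 472, 1223 and 279 in transgenic glands. The groups did not overlap, and the log2 difference was 1.68 ± 0.48 (adjusted p = 0.0255 by limma). Usp18 had 1254, 706 and 336 in tumors and 114, 182 and 345 in NMRI glands, with 337, 670.3 and 272 in transgenic glands, so that tumor 3 lay below NMRI gland 3. Its log2 difference was 1.79 ± 0.53 (adjusted p = 0.0303 by limma). Both calls were lost when 1 of 4 arrays was left out: without NMRI gland 1, NMRI gland 2, tumor 1 or tumor 2, the adjusted p by limma was 0.0921, 0.0602, 0.0770 and 0.0854 for Irf7, and 0.119, 0.0798, 0.102 and 0.0789 for Usp18.

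Isg20 had 202, 204 and 182 in tumors, all well below the NMRI glands. The mean of 196 ± 11.8 (SD, n = 3) was 3.04-fold lower, with a log2 difference of -1.60 ± 0.25 and adjusted p = 0.00108 by limma. Ifi30 had 1402, 1262 and 1459 in tumors and 2578, 1963 and 2654 in NMRI glands, with transgenic glands between at 1786, 1647 and 1265. It was 1.73-fold lower in tumors, a log2 difference of -0.79 ± 0.22 (adjusted p = 0.0225 by limma). That call was lost without NMRI gland 1 (0.0814), NMRI gland 3 (0.0783), tumor 1 (0.0549) or tumor 2 (0.0715). Among members near the threshold, Bst2 had 559, 255 and 253 in tumors against 127, 160.4 and 82.4 in NMRI glands, without overlap (adjusted p = 0.0582 by limma), and 263, 318 and 80.2 in transgenic glands.

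The other 8 members that were lower by 4-fold in ME-B, namely Irf9, Ifit1, Ifit3, Igtp, Ifih1, Bst2, Ifi35 and Rtp4, did not pass in any tissue comparison. Irf9 had 488, 668 and 497 in NMRI glands, 552, 524 and 371 in transgenic glands, and 659.7, 465 and 321 in tumors. Ifit1 had 133, 256 and 322, then 209, 658 and 338, then 491, 598 and 341 in the same order of groups. All tumors were above all NMRI glands for Ifit1 by these values, with adjusted p = 0.103 by limma, whereas Irf9 groups overlapped throughout. Ifit3 had 201, 217 and 323 in NMRI glands, 253, 480.3 and 159 in transgenic glands, and 253, 208 and 194 in tumors. Igtp had 428, 459.9 and 663, then 790.3, 1312 and 643, then 583, 826 and 685. Ifih1 had 474, 624 and 903, then 643, 738 and 857, then 784, 498 and 467. These 3 genes, all with an ISRE core in their window, overlapped between every pair of groups.

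Rtp4 and Ifi30 are given on every array because, with Oas1a, their probe sets had the highest mean signals, which says nothing of RNA levels between genes. Rtp4 had 263, 979 and 2103 in NMRI glands, 1402, 1966 and 1807 in transgenic glands, and 2183, 2597 and 1024 in tumors. NMRI gland 1 stood far below the rest, all 3 groups overlapped, and no comparison passed. The second Rtp4 probe set was at most 78.0 on any array. Rsad2 probe sets disagreed in sign: for transgenic against NMRI glands the brightest gave a log2 difference of 0.74 ± 0.39 and another -0.99 ± 0.42 (adjusted p = 0.173 by limma), so no direction is given for this gene in tissue.

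**Figure D4:**
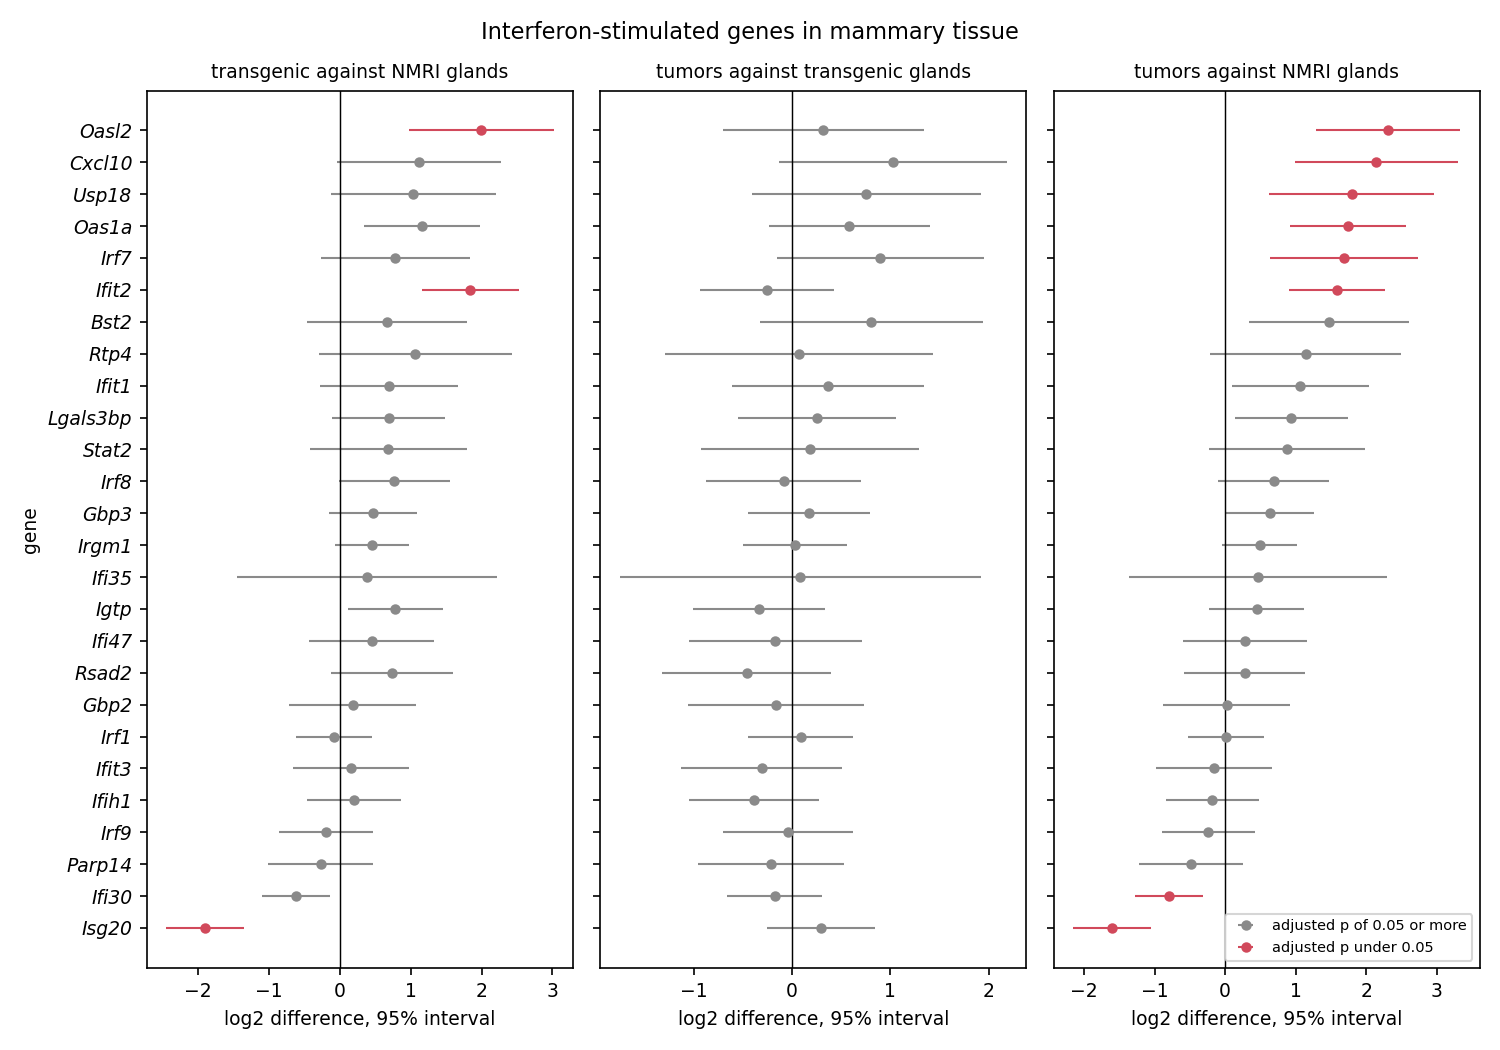
Log2 difference and 95% interval from limma for the 26 members tested, in the 3 tissue comparisons, ordered by the difference between tumors and NMRI glands. Red marks an adjusted p under 0.05, reached by 3 genes in the left panel, 0 in the middle panel and 8 in the right panel.

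Members tended to be high or low together on single arrays. Transgenic gland 2 was the highest of its group in 22 of 26 members, where it was highest in 33.3% of all genes. NMRI gland 1 was the lowest of its group in 19 (33.9% of genes) and NMRI gland 3 the highest in 17 (38.7%). Tumor 3 was the lowest of its group in 20 (35.5%) and tumor 1 the highest in 15 (35.7%). The mean log2 signal over the 29 members was 7.79, 8.17 and 8.28 in NMRI glands, 8.41, 9.08 and 8.19 in transgenic glands, and 8.98, 8.70 and 8.37 in tumors. The transgenic and NMRI groups overlapped on this mean, since transgenic gland 3 lay below NMRI gland 3.

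Markers of other cell types varied over the same arrays. The 9 markers of all leukocytes summed to 7382 in transgenic gland 2, against 1984 and 2870 in transgenic glands 1 and 3, to between 2025 and 3032 in NMRI glands and to between 2606 and 4119 in tumors. Over all genes, 6.08% were called higher and 4.03% lower in transgenic than in NMRI glands. In tumors against NMRI glands these shares were 12.9% and 11.6%. Of 20 macrophage and myeloid markers tested by limma, 3 were higher and 0 lower in transgenic than in NMRI glands, and 12 were higher and 1 lower in tumors than in NMRI glands. Their summed signal over 22 markers was 13648 to 21631 in NMRI glands, 15175 to 28281 in transgenic glands and 22150 to 26183 in tumors. Of 5 T and NK cell markers tested, the same 3 (Gzma, Gzmb and Il2rb) were lower and 0 higher in transgenic glands and in tumors than in NMRI glands. Over all 15 measured, though, these markers summed to 3429 in transgenic gland 2, the highest of the tissue arrays, to 1551 and 1546 in transgenic glands 1 and 3, to between 2121 and 2568 in NMRI glands and to between 1017 and 1309 in tumors. Cd3d, of the T cell receptor complex, had 478 in transgenic gland 2 and at most 19.9 on the other tissue arrays. B and plasma cell markers (10) were also highest in transgenic gland 2, with a sum of 8649, against 5344 and 2992 in the other transgenic glands.

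Adipocyte markers, of which 7 were tested, were all 7 lower in tumors than in NMRI glands by limma, and 0 of 7 passed in transgenic glands. Their sum over 9 markers was 1039 to 9744 in tumors, 19702 to 25728 in NMRI glands and 20896 to 39282 in transgenic glands. Of 9 endothelial markers tested, 5 were lower and 0 higher in tumors than in NMRI glands. Skeletal muscle markers (15) summed to between 552 and 30748 over the tissue arrays, with 0 of 15 past the threshold in transgenic and 2 lower in tumors against NMRI glands. That muscle count in tumors is near the share of all genes lower there, 11.6%. Of 8 milk protein markers tested by limma, 8 were lower in tumors and 4 lower in transgenic glands than in NMRI glands. Markers of dividing cells, 7 tested, were all 7 higher in tumors and in transgenic glands than in NMRI glands. The titles of the tumors give no lactation state. The part of these cells and states in the results for interferon-stimulated genes was not tested. In bulk tissue, fewer cells of a type and less RNA per cell cannot be told apart.

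RNA quality also differed between the arrays. Gapdh control probe sets at the 3′ and 5′ ends give a ratio that rises as RNA degrades, and it was 12.9, 2.28 and 40.3 in NMRI glands, 10.7, 2.49 and 22.5 in transgenic glands, 5.63, 0.982 and 0.969 in tumors, and at most 0.949 in the lines. Ifi35 was low on the arrays with the highest ratios, at 50.1 in NMRI gland 3 and 143 in transgenic gland 3. It had 665 and 586 in the other NMRI glands, 506 and 678 in the other transgenic glands, and 327, 421 and 427 in tumors. With the log2 of this ratio as a covariate, 4 members passed for tumors against NMRI glands in place of 8, and 3 for transgenic against NMRI glands as before. The 4 that no longer passed kept their direction, with log2 differences of 2.04 for Usp18, 1.77 for Cxcl10, 1.32 for Irf7 and -0.72 for Ifi30. Without those same 2 arrays the counts were 10 and 4, and the log2 difference of Oasl2 between transgenic and NMRI glands was 2.69.

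**Figure D5:**
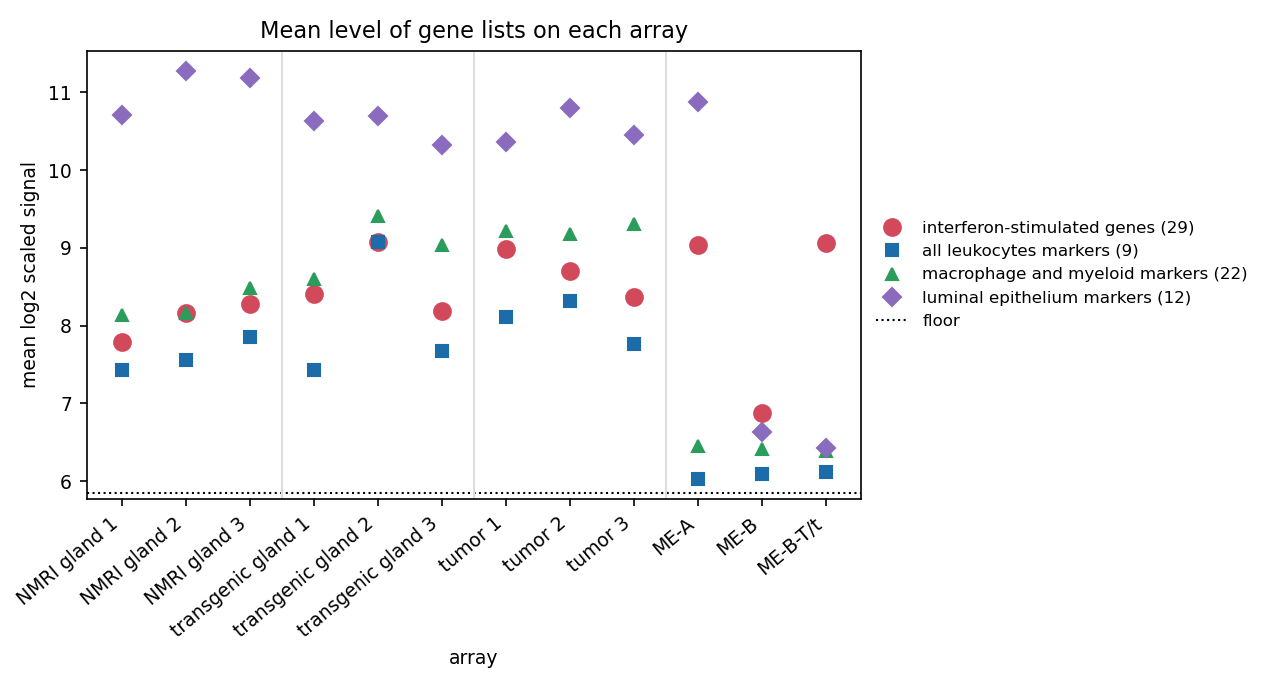
Mean log2 scaled signal on each array of the 29 measured interferon-stimulated genes (red), 9 markers of all leukocytes (blue), 22 macrophage and myeloid markers (green) and 12 luminal epithelial markers (purple), with the floor as a dotted line. The interferon-stimulated genes stand at 6.88 in ME-B and at 9.03 and 9.06 in ME-A and ME-B-T/t, where leukocyte markers lie near the floor in all 3 lines.

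The wider interferon lists gave 64 genes tested in tissue. For transgenic against NMRI glands 5 were higher and 0 lower by limma, 7.81% where 10.1% of all genes passed. Slfn8, of the Schlafen family, had 354 ± 144 (SD, n = 3) against 58.6 ± 6.3, with adjusted p = 0.00255 by limma. Its NMRI mean was close to the floor of 57.5, so the size of this difference depends on the floor. Epsti1, named for epithelial-stromal interaction, had 501 ± 103 against 202 ± 80.9 (adjusted p = 0.0255 by limma). Ifi202b, of the same family as Ifi204, had 406 ± 171 against 104 ± 54.4 (adjusted p = 0.0312 by limma). Ddx60 was at least 2.54-fold higher (adjusted p = 0.0366 by limma).

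In tumors against transgenic glands 0 of the 64 passed by limma, and 7 had an unadjusted p under 0.05. For tumors against NMRI glands 6 were higher and 2 lower, 12.5% where 24.6% of all genes passed. Slfn8 was 4.03-fold higher (adjusted p = 0.00418 by limma), again over an NMRI level near the floor. Ddx60 was at least 3.43-fold higher (adjusted p = 0.00469 by limma). Lgals9, which encodes galectin-9, had 1035 ± 406 (SD, n = 3) against 278 ± 87.5 (adjusted p = 0.00729 by limma). Cmpk2, a mitochondrial nucleotide kinase gene induced by interferon, was lower, at 253 ± 70.8 against 876 ± 255 (adjusted p = 0.00394 by limma). Of the 5 receptor genes and the 4 kinase and STAT genes tested, 0 passed by limma in any of the 3 comparisons, though at an unadjusted p under 0.05 there were 2 receptor genes in tumors against NMRI glands, and 1 receptor and 1 kinase gene in transgenic against NMRI glands. Of 6 inhibitors outside the members 1 passed, the phosphatase gene Ptpn2, named after its values were seen. It had 2899 ± 396 (SD, n = 3) in tumors against 1271 ± 446 in NMRI glands. The inhibitor Usp18, counted as a member, passed in the same comparison.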

How the data were processed

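RNA of 9 tissue samples and 3 cell lines was read on arrays of 22690 probe sets, 1 color each. Per the submitters' processing notes, the authors used MAS5, and the deposited columns hold its intensity values without a log. For its version and target, nothing is given in the sources used here. Deposited trimmed means differed by at most 1.19-fold. Arrays were brought to the mean of the 12 trimmed means (2% cut at each end), floored at the pooled 30th percentile and taken to log2. The brightest probe set stood for a gene. It was tested in tissue if at least 3 of 9 arrays were above the pooled median of 139.9, and measured in the lines if 1 line was. Because the arrays of a fit set the choice, Stat2 was read from different probe sets in tissue and in lines. Probe sets naming several genes (691) or none (1555) were left out. The number of arrays limits the precision.

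The test was limma 3.58.1 under R 4.3.3 (lmFit, eBayes with an intensity trend, Benjamini-Hochberg over all genes, two-sided), with 3 tissue groups in 1 fit and 6 residual degrees of freedom. The procedure was tested on simulated data. Lines had no test: a gene counted at 4-fold against both other lines. Python 3.11.15 and matplotlib 3.10.9 drew the figures. The members, the wider pathway lists, the marker lists and the rule for naming genes were chosen with earlier results of these data known. All members may be named, and each of the 26 measured in the lines has its line values. Tissue array values are given for members called in a tissue comparison, past 4-fold in ME-B or among the 3 of highest mean signal, and at most 4 genes per comparison are named from the wider lists, those with the smallest adjusted p or, in the lines, the largest difference. The upstream genes in the lines, Ptpn2, Oas2, Oas3 and Oasl1 are named outside that rule, after their values were seen. For NMRI and transgenic glands of the same number, deviations from the group means correlated at 0.22, 0.37 and 0.37. The labels state no pairing, and the main fit used none. The Gapdh ratio also ran in the same order of numbers in both groups, so pairing and RNA quality cannot be told apart. The count of members lower in ME-B was added after seeing the data, beside the count of higher ones. Alternatives covered scaling, floor, filter, probe set rule, variance model, samples and covariates.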

Additional observations from a re-analysis of the deposited data

How the results depend on the processing

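Counts of members called were recomputed under 14 other settings in tissue, 9 fits without 1 array and 9 settings in the lines. Of the members called in the main fit or past 4-fold in ME-B, 0 reversed direction. Other members were outside that check. For tumors against NMRI glands the count of 8 became 5 with no filter on dim genes, where more genes are tested, and 4 with the Gapdh ratio as a covariate; the cause of the latter was not tested. Without 1 array it ranged from 4 to 9, with 5 without NMRI gland 1, 4 without tumor 1 and 5 without tumor 2. For transgenic against NMRI glands it ranged from 2 to 3, and for tumors against transgenic glands it was 0 in all 9 fits and all settings. The count of members lower in ME-B was 13, with 7 at 8-fold, a stricter rule, and 19 at 2-fold, a looser one. It was at least 11 in the other settings, and 0 members were higher at any of these rules or settings. Ifit2 and Isg20 in both comparisons with NMRI glands, and Oas1a and Oasl2 in tumors, passed in every setting and fit run. Beside the calls already described as lost, Irf7, Usp18 and Cxcl10 in tumors, and Oasl2 in transgenic glands, did not pass without the filter, and Irf7, Usp18, Cxcl10 and Ifi30 in tumors did not with the covariate. Ifi30 also misses a 2-fold minimum. With the replicate number as a block the counts were 3, 0 and 9, in the order of the 3 tissue comparisons. The block kept all 3 calls of the first and all 8 of the last, adding 1. In the comparisons with tumors, samples of 1 number correlated at between -0.17 and 0.33, and the labels state no pairing there either. Signals as deposited move the median of all genes to 0.11 for transgenic and 0.10 for tumors against NMRI glands, and the members' medians to 0.73 and 0.64. For tumors against transgenic glands the members' median did change sign. It ranged from -0.17, without transgenic gland 3, to 0.21, without transgenic gland 2, in fits without 1 array.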
